A study of Homo sapiens with 18 samples.

Results

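The comparison described here is the transcriptome of H1650 Tr-BrM cells under S100A9-inh set against H1650 Tr-BrM control cells. H1650 is a human lung adenocarcinoma line, which the labels call EGFR-mutant, and the cells are derivatives of it from brain metastasis. The groups were Tr-BrM cells with treatment S100A9-inh, Tr-BrM cells with treatment control, and, as a further level to read these against, BrM cells with treatment control, with 3 libraries in each. What Tr stands for, how S100A9 was inhibited, for how long, and whether a group is 1 clone are not stated in the labels. All genes that passed a filter on low counts were members, 17937 of the 60603 gene identifiers in the H1650 count table, and the 2 groups compared held 6 of the 18 libraries of the series. The other 9 libraries were the same 3 groups of PC9, a second EGFR-mutant lung line, which is used here only to show where the response of H1650 differed.

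S100A9 and S100A8 are small calcium-binding proteins that pair as calprotectin, which is abundant in neutrophils and is induced in stressed or inflamed epithelia. Secreted calprotectin binds receptors such as TLR4 and the receptor for advanced glycation end products (AGER), and both can feed into NF-κB, the transcription factor family that drives inflammatory cytokine genes. In EGFR-mutant lung cancer, ligands and receptors that bypass EGFR and a shift towards mesenchymal, YAP-driven states are well-known routes of tolerance to EGFR inhibitors, and interferon target genes are often active in tumour cells without any infection.

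The 3 S100A9-inh libraries held 23678767 to 27112362 counts, the Tr-BrM controls 18847745 to 26503002 and the BrM controls 17403497 to 22887969. The share of counts from mitochondrial genes was 3.85 to 4.07% in S100A9-inh libraries and 3.94 to 4.04% in Tr-BrM controls. The first principal component of these 6 libraries, with 56.5% of the variance, put all S100A9-inh libraries on one side and all Tr-BrM controls on the other. Levels below are CPM, depth-scaled counts after TMM scaling of each library, and are compared within a gene only. A difference is a log2 fold change, S100A9-inh minus Tr-BrM control, from edgeR's quasi-likelihood test, given ± its standard error (SE) with 3 libraries in each group, and genes are said to have risen or fallen where the Benjamini-Hochberg adjusted p was under 0.05. The labels do not say whether the 3 libraries of a group are separate cultures, so a p-value here weighs a difference against a spread that may be technical only. The common biological coefficient of variation was 0.0335, and at such a small spread small differences pass the test.

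The targeted gene was lower in every S100A9-inh library. S100A9 (ENSG00000163220, GRCh38 chromosome 1, 153357854 to 153361027, forward strand) had 95.2, 88.2 and 105.1 CPM in S100A9-inh libraries, against 336.2, 292.9 and 292.2 CPM in Tr-BrM controls. The groups did not overlap, and the difference was -1.67 ± 0.0512 (adjusted p = 1.47e-19). BrM controls averaged 207 ± 9.04 CPM (SD, n = 3), above S100A9-inh and below Tr-BrM control. Its partner S100A8 had 42.8, 44.7 and 44.2 CPM in S100A9-inh libraries, against 122.2, 112.9 and 102.3 CPM in Tr-BrM controls. This fall of -1.36 ± 0.0503 left S100A8 above the 24.6 ± 0.796 CPM of BrM controls. Of the other S100 genes, 7 of 14 tested fell and 1 rose (2 rose without Tr-BrM control replicate 1), where 13.8% of all tested genes fell and 15.4% rose. The largest of these falls with separate replicates was S100P, at 0.771, 0.844 and 1.495 CPM in S100A9-inh libraries and 3.38, 4.65 and 3.98 CPM in Tr-BrM controls. S100A2 was the member that rose, by 0.55 ± 0.0603.

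Among receptors and adaptors for calprotectin, members moved in opposite directions. Of the 17 tested members of that list, which includes S100A8 and S100A9, 6 rose and 5 fell, with a median difference of 0.03. These shares were 35.3% and 29.4%, against 15.4% and 13.8% of all tested genes. Only 3 fell without S100A9-inh replicate 3 or without Tr-BrM control replicate 1. MCAM, a melanoma cell adhesion molecule that binds calprotectin, had 21.8, 23.1 and 21.9 CPM in S100A9-inh libraries, against 12.3, 10.9 and 11.5 CPM in Tr-BrM controls, and rose by 0.95 ± 0.0695. ALCAM, a related adhesion molecule, rose by 0.50 and the receptor NPTN by 0.24. TLR4, an innate immune receptor for calprotectin, fell by 0.95 on the log2 scale at a level near 1 CPM (0.526 ± 0.18 CPM in S100A9-inh and 1.03 ± 0.0534 CPM in Tr-BrM control, SD, n = 3 each). Its call was lost in DESeq2 (adjusted p = 0.0748) and, in edgeR, when any single library of S100A9-inh but replicate 1 or any of Tr-BrM control was left out (adjusted p = 0.0558 to 0.106). AGER had 22.3, 24.1 and 24.4 CPM in S100A9-inh libraries and 25.7, 23.1 and 24.7 CPM in Tr-BrM controls, and these ranges overlapped (adjusted p = 0.651).

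Among retinoid enzymes, transporters and receptors, most of the members that passed were lower. Of 24 tested members, 7 fell and 1 rose, with a median of -0.12 that was -0.04 without S100A9-inh replicate 1, and 2 rose without S100A9-inh replicate 2 or without BrM control replicate 3. ALDH1A1, which oxidises retinal to retinoic acid, had 2.75, 1.86 and 2.95 CPM in S100A9-inh libraries, against 3.80, 3.91 and 3.69 CPM in Tr-BrM controls. The ranges were separate, and it fell by 0.59 on the log2 scale (SE 0.175, adjusted p = 0.0117; adjusted p = 0.0765 without S100A9-inh replicate 2), at a level of 196 counts over the S100A9-inh group and 256 over the controls. ALDH1A3 did not pass, at 12.5 ± 0.825 CPM in S100A9-inh and 11.6 ± 1.39 CPM in Tr-BrM control (SD, n = 3 each, adjusted p = 0.368). The intracellular retinoic acid carrier CRABP2 was at 200.9, 228.2 and 214.9 CPM in S100A9-inh libraries, against 310.5, 288.5 and 295.2 CPM in Tr-BrM controls, a difference of -0.47 ± 0.0371. RXRA, the partner receptor of retinoic acid receptors, fell by 0.43 on the log2 scale, and RARB, a receptor gene that retinoic acid itself induces, had 27 counts over the S100A9-inh libraries and 54 over the controls, a difference of -1.21 ± 0.412 that did not pass without S100A9-inh replicate 2 (adjusted p = 0.117), without Tr-BrM control replicate 1 (0.161) or without Tr-BrM control replicate 3 (0.0596). RDH10, which makes retinal from retinol, rose by 0.41. Of 21 tested retinoic acid target genes, 4 fell (19.0%, against 13.8% of all genes) and 1 rose (4.76%, against 15.4%), with a median of -0.01. The number that rose was 2 when S100A9-inh replicate 1 or 2, Tr-BrM control replicate 3 or BrM control replicate 3 was left out. Nearly all other aldehyde dehydrogenases that passed went down too: 9 of 15 tested fell and 1 rose, with a median of -0.28 (-0.16 without S100A9-inh replicate 3). ALDH3B1 fell by 0.66, ALDH3B2 by 0.67 and the mitochondrial ALDH2 by 0.53 on the log2 scale, whereas mitochondrial ALDH1B1 had 43.2, 44.8 and 46.6 CPM in S100A9-inh libraries, against 23.9, 22.2 and 24.1 CPM in Tr-BrM controls, and rose by 0.94 ± 0.0549.

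**Figure D1:**
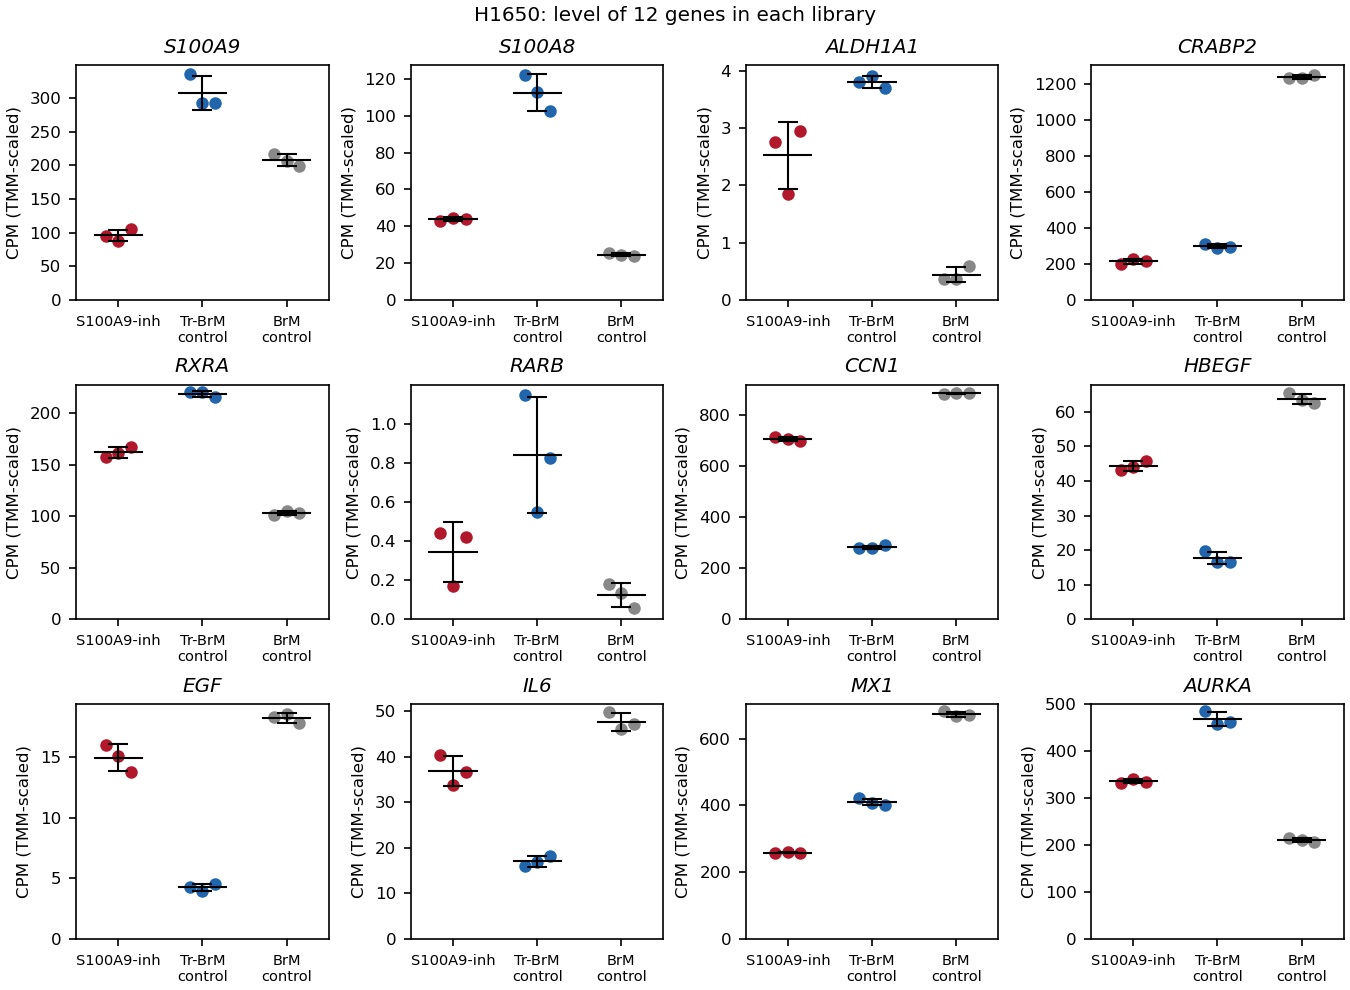
Level in CPM (y axes, TMM-scaled, starting at 0) of 12 genes in each H1650 library; points are libraries, the long line is the mean and the whiskers are the SD of 3 libraries in S100A9-inh (red), Tr-BrM control (blue) and BrM control (grey). S100A9-inh libraries lay below all Tr-BrM controls for S100A9, S100A8, ALDH1A1, CRABP2, RXRA, RARB, MX1 and AURKA, and above all of them for CCN1, HBEGF, EGF and IL6.

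Over all genes the response was broad and mostly small. In total 5230 of 17937 tested genes (29.2%) passed, 2762 higher (52.8% of the calls) and 2468 lower in S100A9-inh. The balance between directions depended on the scaling: with library size alone in place of TMM, 2201 genes were higher (40.8% of the calls) and 3193 lower, and with RLE and upper quartile factors 51.2% and 51.3% of the calls were higher. The median size of those called differences was 0.284 on the log2 scale, with quartiles of 0.184 and 0.494. A difference of at least 1 on the log2 scale was reached by 199 genes that rose (1.11%) and 167 that fell (0.931%), of which 141 and 138 were under 5 CPM in their higher group. Replicates of the 2 groups did not overlap for 7033 genes (39.2%). The median difference over all tested genes was near 0, and the central range from the 5th to the 95th percentile ran from -0.571 to 0.588.

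**Figure D2:**
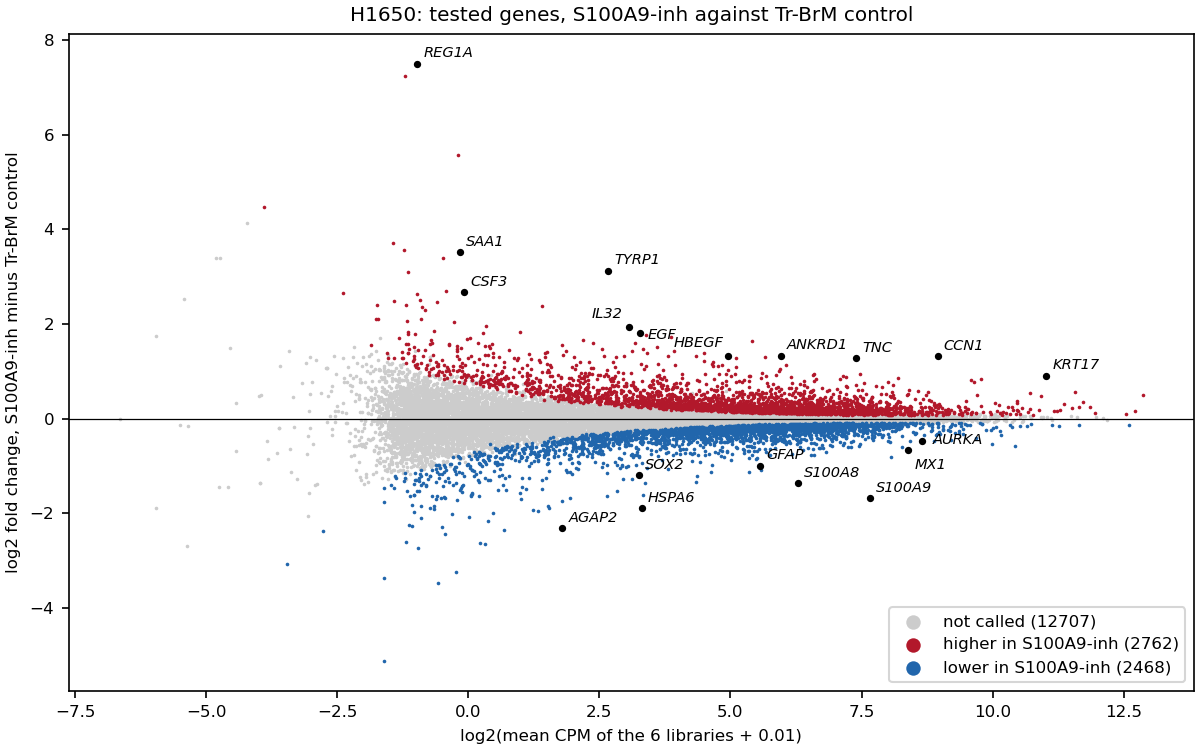
Each point is 1 of the 17937 tested genes of H1650; the x axis is log2 of the mean CPM of the 6 libraries plus 0.01 and the y axis is the log2 fold change, S100A9-inh minus Tr-BrM control. Red points (2762) were called higher and blue points (2468) lower; black points carry names, and S100A9 and S100A8 lie at -1.67 and -1.36. The height of REG1A, which had 0 counts in the Tr-BrM controls, depends on the prior count of the fit and is no measure of its fold change.

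Genes of NF-κB and inflammatory cytokines rose together. Of 32 tested members, 23 rose and 1 fell, against 15.4% and 13.8% of all genes, and the median difference was 0.61, where that of all genes was near 0. The summed level of the list was 925.2 to 950.5 CPM in S100A9-inh libraries and 610.5 to 619.6 CPM in Tr-BrM controls. Subunits of the pathway itself were among them. NFKB2, precursor of the p52 subunit, had 227.7, 239.8 and 239.8 CPM in S100A9-inh libraries, against 136.2, 142.4 and 140.3 CPM in Tr-BrM controls, and rose by 0.75 ± 0.0331 (adjusted p = 2.78e-16). RELB, its partner, had 43.3, 45.9 and 44.1 CPM in S100A9-inh libraries, against 17.7, 17.5 and 19.2 CPM in Tr-BrM controls, and rose by 1.29 ± 0.0575. NFKB1 rose by 0.25. The pathway's own brakes also rose, with TNFAIP3, a ubiquitin-editing inhibitor, at 0.90 ± 0.0621, TNIP1 at 0.59 and NFKBIA, which holds NF-κB in the cytoplasm, at 0.32. BIRC3, an inhibitor of apoptosis in the same pathway, was also higher, with 42.2, 38.9 and 42.8 CPM in S100A9-inh libraries, against 20.9, 19.9 and 20.2 CPM in Tr-BrM controls.

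Cytokines of this list had larger differences and larger spread. IL6 had 40.4, 33.9 and 36.6 CPM in S100A9-inh libraries, against 15.97, 16.9 and 18.2 CPM in Tr-BrM controls, and rose by 1.12 ± 0.0675. CXCL8, a neutrophil attractant, had 25.3, 23.8 and 14.3 CPM in S100A9-inh libraries, against 10.1, 11.8 and 6.61 CPM in Tr-BrM controls. The groups were separate although library 3 of each was lower than the others, and CXCL8 rose by 1.13 ± 0.176. Its relatives CXCL1, CXCL2, CXCL3 and CXCL5 rose by 1.15, 1.03, 1.46 and 1.06. CSF3, the granulocyte growth factor, had 127 counts over the S100A9-inh libraries and 17 over the controls and rose by 2.68 ± 0.444, and IL1B had 147 counts over the S100A9-inh libraries and 36 over the controls and rose by 1.81 ± 0.423, or by 1.19 without S100A9-inh replicate 1. CCL2, which attracts monocytes, was the member that fell, at 4.59, 6.83 and 3.99 CPM in S100A9-inh libraries, against 7.59, 8.78 and 7.39 CPM in Tr-BrM controls. Outside the list, the acute phase gene SAA1, which can share reads with its near copy SAA2, had 124 counts over the S100A9-inh libraries and 9 over the controls, and IL32, a cytokine with no mouse counterpart, had 12.2, 13.8 and 14.1 CPM in S100A9-inh libraries, against 3.07, 4.02 and 3.16 CPM in Tr-BrM controls.

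The promoters of 3 of these genes are shown because they hold a motif of NF-κB. The motif searched was GGGAANNNC on both strands in the 250 bases before each RefSeq start (GRCh38.p14); it was present for 16 of the 25 tested list members that have a window, and for 26.6% of the 12249 tested genes with a window. Sequences are written 5′ to 3′ on the gene's strand, with each match in capitals, and overlapping matches run together. The windows are IL6 at chr7:22726950-22727199 (forward strand), CXCL1 at chr4:73869143-73869392 (forward strand) and NFKB2 at chr10:102394328-102394577 (forward strand), the first of the 2 NFKB2 starts, of 3 in RefSeq, that hold a match.
IL6: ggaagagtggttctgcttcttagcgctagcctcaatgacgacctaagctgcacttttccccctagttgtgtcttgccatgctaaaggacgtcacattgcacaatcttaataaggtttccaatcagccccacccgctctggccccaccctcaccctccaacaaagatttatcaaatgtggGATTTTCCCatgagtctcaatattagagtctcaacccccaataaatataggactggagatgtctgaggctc
CXCL1: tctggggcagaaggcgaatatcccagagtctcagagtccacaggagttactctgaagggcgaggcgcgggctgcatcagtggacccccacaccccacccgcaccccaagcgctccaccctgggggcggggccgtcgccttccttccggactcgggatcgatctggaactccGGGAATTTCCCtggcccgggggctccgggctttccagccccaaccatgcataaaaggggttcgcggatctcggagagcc
NFKB2: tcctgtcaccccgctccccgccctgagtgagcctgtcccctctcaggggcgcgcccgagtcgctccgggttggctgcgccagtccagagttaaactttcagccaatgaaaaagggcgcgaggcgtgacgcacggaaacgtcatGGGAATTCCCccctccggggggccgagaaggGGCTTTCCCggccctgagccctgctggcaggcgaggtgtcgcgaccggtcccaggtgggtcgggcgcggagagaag
A match is a description of the letters and not a measure of binding, which these data do not hold.

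Targets of YAP and TEAD, the effectors of the Hippo pathway that respond to cell shape and tension, also rose. Of 27 tested members, 19 rose and 1 fell, with a median of 0.22 (70.4% and 3.7%, against 15.4% and 13.8% of all tested genes). CCN1, a secreted matricellular protein, had 715.6, 705.9 and 696.5 CPM in S100A9-inh libraries, against 280.2, 277.9 and 289.6 CPM in Tr-BrM controls. It rose by 1.32 ± 0.0291 (adjusted p = 6.65e-23), the smallest p among all tested genes, and BrM controls were at 885 CPM. ANKRD1, a nuclear cofactor and YAP target, had 92.1, 87.3 and 87.1 CPM in S100A9-inh libraries, against 39.1, 33.8 and 33.2 CPM in Tr-BrM controls, and rose by 1.33 ± 0.053. CCN2, another secreted target, had 28.01, 30.2 and 29.02 CPM in S100A9-inh libraries, against 12.95, 11.5 and 10.6 CPM in Tr-BrM controls, and rose by 1.32 ± 0.066. Most other members that rose had smaller differences, such as CRIM1 at 0.27, TEAD1, which encodes a TEAD factor, at 0.23, and AMOTL2 at 0.15. AMOTL1, a junctional partner of YAP, was the member that fell, by 0.16 on the log2 scale.

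ANKRD1 and CCN2 are shown for the TEAD motif. GGAATG was searched on both strands in the same windows, and 9 of 20 tested list members with a window held it, against 13.2% of the 12249 tested genes. The windows are ANKRD1 at chr10:90921088-90921337 (reverse strand) and CCN2 at chr6:131951373-131951622 (reverse strand), with each GGAATG, or its reverse complement, in capitals.
ANKRD1: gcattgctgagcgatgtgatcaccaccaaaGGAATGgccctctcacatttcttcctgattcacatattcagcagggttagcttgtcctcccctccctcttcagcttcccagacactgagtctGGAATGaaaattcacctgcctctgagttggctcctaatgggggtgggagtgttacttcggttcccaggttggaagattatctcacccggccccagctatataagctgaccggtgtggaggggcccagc
CCN2: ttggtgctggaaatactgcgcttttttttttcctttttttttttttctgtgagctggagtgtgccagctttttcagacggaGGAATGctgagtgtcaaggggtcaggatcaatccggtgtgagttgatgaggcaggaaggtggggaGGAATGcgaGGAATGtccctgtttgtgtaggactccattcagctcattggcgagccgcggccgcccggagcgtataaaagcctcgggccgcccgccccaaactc
CCN2 holds 3 matches and ANKRD1 holds 2.

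TGF-β response genes were also mostly higher, and CCN2 and TGFB2 are members of this list and of the YAP list. Of 27 tested members, 18 rose and 4 fell, with a median of 0.31 (66.7% and 14.8%, against 15.4% and 13.8% of all tested genes). PMEPA1, a feedback inhibitor of TGF-β signalling, had 389.3, 374.1 and 377.3 CPM in S100A9-inh libraries, against 207.9, 213.5 and 204.3 CPM in Tr-BrM controls, and rose by 0.87 ± 0.0312. The ligand TGFB2 rose by 1.13 ± 0.0695, TGFB1 by 0.54 and the inhibitory SMAD7 by 0.53. ID2, an inhibitor of differentiation that BMP signalling induces, fell by 0.70 on the log2 scale.

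Matrix, adhesion and protease genes were more often higher than lower, where 15.4% of all tested genes rose and 13.8% fell. Of 40 tested mesenchymal genes 19 rose and 2 fell (median 0.28), of 28 metalloproteases and inhibitors 12 rose and 1 fell (median 0.27), of 18 integrins 8 rose and 2 fell (median 0.17, and 0.27 under a filter of 1 CPM in 3 libraries) and of 39 collagens and basement membrane genes 11 rose and 6 fell (median 0.02). TNC, a matricellular protein of invasive fronts, had 235.2, 241.8 and 239.1 CPM in S100A9-inh libraries, against 95.6, 97.7 and 100.5 CPM in Tr-BrM controls, and rose by 1.28 ± 0.0329. THBS1, thrombospondin, rose by 0.84 ± 0.0302 and fibronectin FN1 by 0.36. SNAI2, a transcription factor that represses epithelial genes, had 10.3, 9.96 and 10.4 CPM in S100A9-inh libraries, against 4.73, 5.74 and 5.004 CPM in Tr-BrM controls, and rose by 0.97 ± 0.118. The mesenchymal cadherin CDH2 rose by 0.90 at a level of 3.19 CPM in Tr-BrM control. POSTN and S100A4 were the members that fell, by 0.92 and 0.57 on the log2 scale. Among integrins, ITGB6, the epithelial subunit that releases active TGF-β, had 34.8, 31.4 and 31.7 CPM in S100A9-inh libraries, against 11.4, 12.6 and 13.3 CPM in Tr-BrM controls, and rose by 1.39 ± 0.0786. Its partner ITGAV rose by 0.53, and ITGB4, the hemidesmosome subunit, fell by 0.34 on the log2 scale.

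Basement membrane genes differed in direction, and 22 of the 39 tested members of that list did not pass. The laminin chains LAMA3 and LAMB3 rose by 0.78 and 0.40, and the collagen IV chains COL4A1 and COL4A2 by 0.92 and 0.83. In contrast the laminin chains LAMA5 and LAMB2 fell by 0.25 and 0.20, and the proteoglycan agrin, AGRN, by 0.24 on the log2 scale. Proteases that rose included ADAMTS1 (1.05 ± 0.051) and MMP14, a membrane-bound collagenase (0.52 ± 0.0381). Of 21 tested genes linked by earlier studies to brain metastasis, 8 rose and 5 fell, with a median of 0.16, and 3 fell without Tr-BrM control replicate 2. The 8 and 5 were 38.1% and 23.8%, against 15.4% and 13.8% of all tested genes. That median was 0.05 without S100A9-inh replicate 1, and 0.10 without Tr-BrM control replicate 1 or without replicate 3. The urokinase receptor PLAUR rose by 1.01 ± 0.0502 and the serpin SERPINE2 by 1.30 ± 0.07, and VCAM1, an adhesion molecule for leukocytes, had 115 counts over the S100A9-inh libraries and 31 over the controls.

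**Figure D3:**
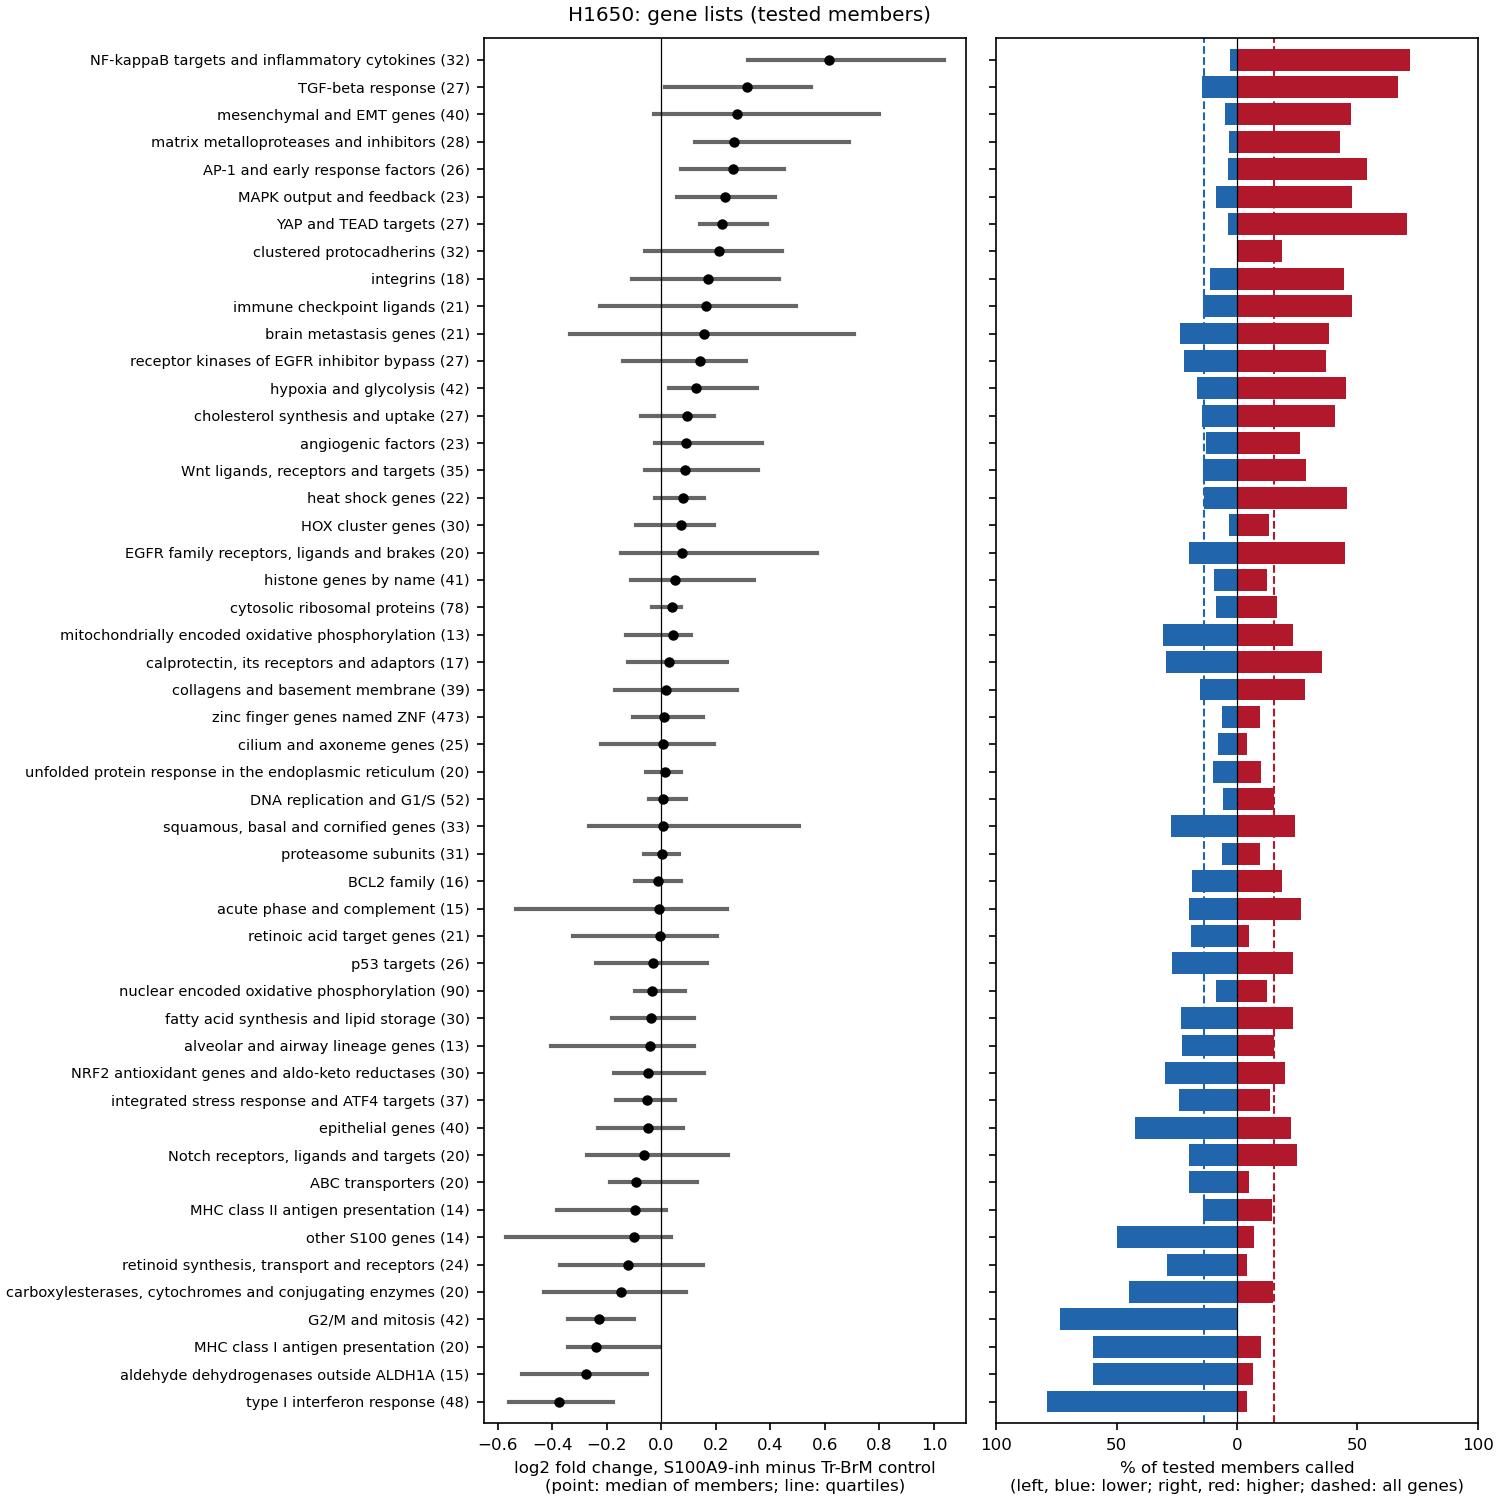
Left, median (point) and quartiles (line) of the log2 fold change, S100A9-inh minus Tr-BrM control, over the tested members of each gene list (number in parentheses); right, percent of tested members called higher (red) and lower (blue), with dashed lines at 15.4% and 13.8% for all tested genes. NF-κB and cytokine genes stand at the top with 23 of 32 higher, and interferon response genes at the bottom with 38 of 48 lower.

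Members of the EGFR family differed in direction, among receptors and among ligands. EGFR itself had 358.1, 360.2 and 368.3 CPM in S100A9-inh libraries and 351.2, 363.6 and 379.0 CPM in Tr-BrM controls, with overlapping ranges (-0.01 ± 0.0316, adjusted p = 0.864). Its ligands were mostly higher. EGF had 16.01, 15.1 and 13.8 CPM in S100A9-inh libraries, against 4.26, 3.95 and 4.57 CPM in Tr-BrM controls, and rose by 1.82 ± 0.0977. HBEGF had 43.1, 44.0 and 45.7 CPM in S100A9-inh libraries, against 19.7, 16.6 and 16.7 CPM in Tr-BrM controls, and rose by 1.33 ± 0.0598. TGFA rose by 0.90 ± 0.0363, AREG by 0.29, EPGN by 0.51 and NRG1, the ligand of ERBB3 and ERBB4, by 1.55 ± 0.171. BTC, betacellulin, went the other way, with 17.8, 17.04 and 19.1 CPM in S100A9-inh libraries, against 32.6, 30.3 and 27.9 CPM in Tr-BrM controls. The receptors ERBB2 and ERBB3 fell by 0.21 and 0.47 on the log2 scale. The receptor ERBB4 had 6.02, 7.13 and 6.33 CPM in S100A9-inh libraries, against 5.56, 3.99 and 4.66 CPM in Tr-BrM controls, and rose by 0.47 ± 0.139 (adjusted p = 0.0109). It did not pass without S100A9-inh replicate 2 (adjusted p = 0.0504) or without Tr-BrM control replicate 2 (adjusted p = 0.109). In all, 9 of 20 tested members of the list rose and 4 fell. Their median of 0.07 was 0.02 without Tr-BrM control replicate 2 and 0.20 without Tr-BrM control replicate 3.

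Downstream of these receptors, 11 of 23 MAPK output and feedback genes rose and 2 fell (median 0.23). Of 26 AP-1 and early response factors 14 rose and 1 fell (median 0.26). Among all tested genes 15.4% rose and 13.8% fell. The MAPK members that fell numbered 0 without Tr-BrM control replicate 2 and 1 without 4 other libraries left out in turn, and the AP-1 members that fell numbered 2 without Tr-BrM control replicate 1 or 2 and under each other scaling. FOSL1, an AP-1 subunit, had 14.8, 12.5 and 13.5 CPM in S100A9-inh libraries, against 7.12, 5.85 and 5.44 CPM in Tr-BrM controls, and rose by 1.16 ± 0.0959. JUN rose by 0.60, ATF3, a stress-induced partner of JUN, by 0.75, and DUSP1, a phosphatase that switches MAPK off, by 0.72. DUSP6, a feedback phosphatase of ERK, did not pass, at 6.39 ± 1.17 CPM in S100A9-inh and 5.71 ± 0.993 CPM in Tr-BrM control (SD, n = 3 each, adjusted p = 0.449). BTG2, an antiproliferative early response gene, fell by 0.79 on the log2 scale. Among 27 receptor kinases and ligands known to bypass EGFR inhibitors, 10 rose (37.0%) and 6 fell (22.2%). Their median was 0.14 (0.09 without Tr-BrM control replicate 1). AXL, a receptor of GAS6, had 66.6, 64.6 and 68.4 CPM in S100A9-inh libraries, against 35.7, 34.6 and 37.0 CPM in Tr-BrM controls, and rose by 0.90 ± 0.0437, while BrM controls were at 210 CPM. The hepatocyte growth factor receptor MET rose by 0.31, KIT by 0.59 and FGF2 by 0.61, and FGFR3 fell by 0.89 and FGFR2 by 0.25 on the log2 scale.

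Epithelial genes more often fell than rose, and squamous genes were divided. Of 40 tested epithelial genes 17 fell (42.5%, against 13.8% of all genes) and 9 rose (22.5%, against 15.4%), with a median of -0.05, and of 33 squamous and basal genes 9 fell and 8 rose (median 0.01). KRT19, a simple epithelial keratin, had 810.0, 854.6 and 820.8 CPM in S100A9-inh libraries, against 1180, 1227 and 1211 CPM in Tr-BrM controls, and fell by 0.54 on the log2 scale. The splicing regulators ESRP1 and ESRP2 and the epithelial factor GRHL1 fell by 0.29, 0.36 and 0.62 on the log2 scale. The tight junction gene CLDN1 rose by 0.50. KRT17, a basal and stress keratin, had 2617, 2805 and 2739 CPM in S100A9-inh libraries, against 1476, 1444 and 1414 CPM in Tr-BrM controls, and rose by 0.91 ± 0.0299. KRT6A, whose near-identical copies KRT6B and KRT6C can share reads with it, rose by 0.37, KRT16 by 0.69 and the kallikrein KLK5 by 0.95. In the other direction SOX2, a transcription factor of basal airway cells, had 6.02, 6.24 and 5.21 CPM in S100A9-inh libraries, against 13.6, 13.5 and 12.6 CPM in Tr-BrM controls, and KRT13 fell by 1.14 on the log2 scale.

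**Figure D4:**
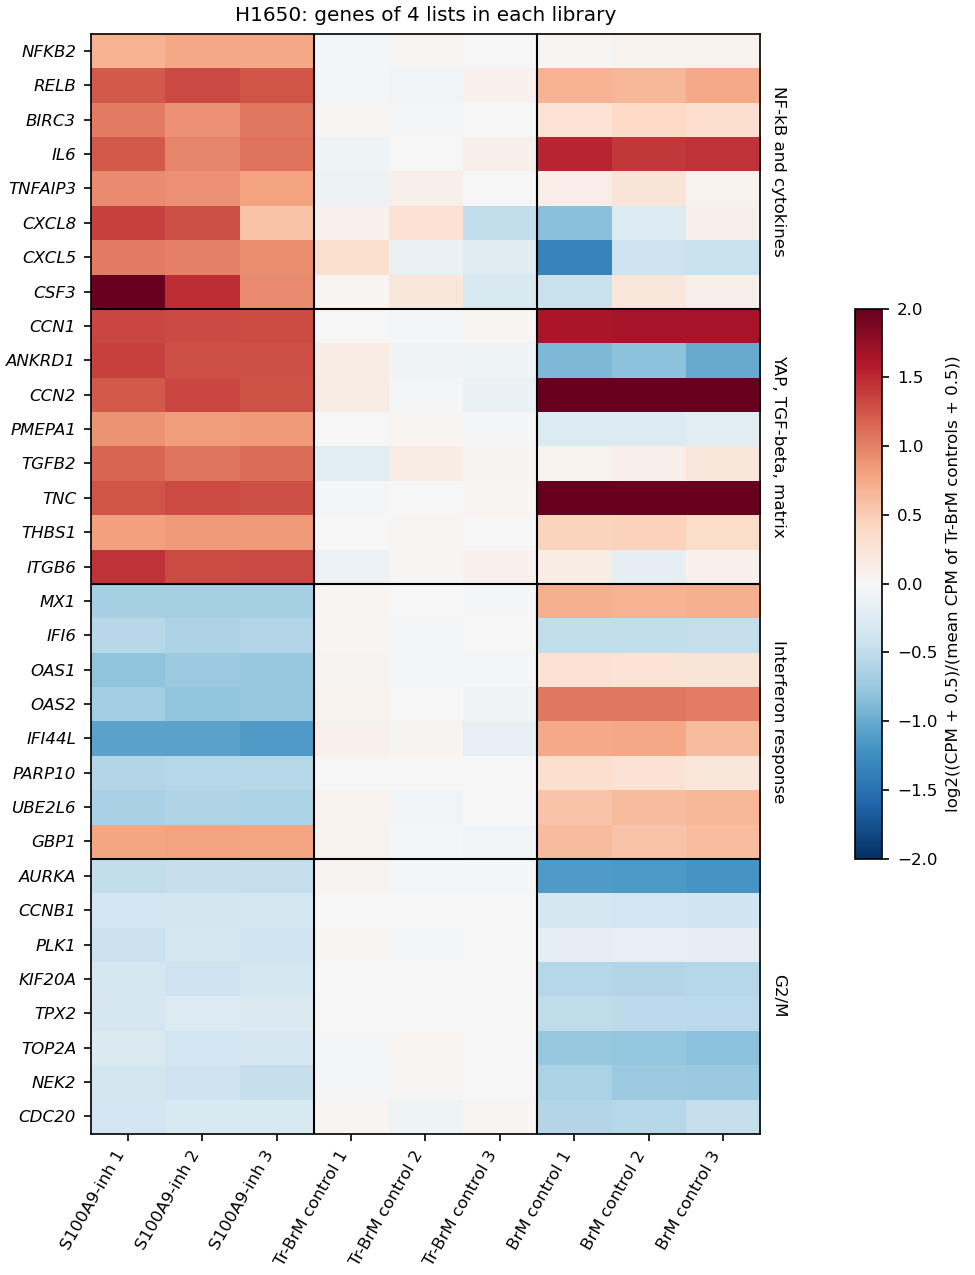
Colour gives log2 of (CPM + 0.5) over (mean CPM of Tr-BrM controls + 0.5) for 32 genes (rows) in the 9 H1650 libraries (columns: 3 S100A9-inh, 3 Tr-BrM control, 3 BrM control), with the scale ending at -2 and 2. The 3 S100A9-inh libraries are alike in nearly all rows, with CSF3 and CXCL8 the most variable, and GBP1 stands apart from the other interferon response genes.

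Most type I interferon response genes fell. Of 48 tested members, 38 fell and 2 rose (79.2% and 4.17%, against 13.8% and 15.4% of all tested genes), with a median of -0.37. The summed level of the list was 5535 to 5554 CPM in S100A9-inh libraries and 7168 to 7517 CPM in Tr-BrM controls. MX1, an antiviral GTPase, had 257.4, 259.8 and 258.1 CPM in S100A9-inh libraries, against 421.7, 406.2 and 402.6 CPM in Tr-BrM controls, and fell by 0.67 on the log2 scale (SE 0.0296, adjusted p = 3.33e-16). IFI6, a mitochondrial and ER survival protein, had 1120, 1075 and 1093 CPM in S100A9-inh libraries, against 1686, 1613 and 1633 CPM in Tr-BrM controls. OAS1, a sensor that makes oligoadenylates from viral RNA, had 66.9, 70.3 and 68.7 CPM in S100A9-inh libraries, against 121.8, 113.6 and 114.8 CPM in Tr-BrM controls. IFI44L had the largest fall of the list, at 15.9, 15.95 and 15.2 CPM in S100A9-inh libraries, against 36.2, 35.5 and 30.4 CPM in Tr-BrM controls (-1.12 ± 0.0676). The transcription factor STAT2 fell by 0.38 on the log2 scale, and IRF9, its partner, has 0 counts in all 9 H1650 libraries and could not be tested. The counting tool and gene models are not stated, so a count of 0 does not show that IRF9 is silent. The members that rose were GBP1 and GBP2, guanylate-binding proteins that respond strongly to interferon gamma and also to inflammatory cytokines: GBP1 had 122.9, 123.4 and 122.6 CPM in S100A9-inh libraries, against 74.1, 69.6 and 68.1 CPM in Tr-BrM controls (0.80 ± 0.0379), and GBP2 rose by 0.25.

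IFI6 and IFI44L are shown for the interferon-stimulated response element, a site of the complex that holds STAT2 and IRF9. GAAANNGAA was searched on both strands in the 250 bases before each start, and 24 of the 37 tested list members with a window held it, against 7.65% of the 12249 tested genes; GBP1, which rose, also holds it. The windows are IFI6 at chr1:27672193-27672442 (reverse strand) and IFI44L at chr1:78620198-78620447 (forward strand), with each match in capitals.
IFI6: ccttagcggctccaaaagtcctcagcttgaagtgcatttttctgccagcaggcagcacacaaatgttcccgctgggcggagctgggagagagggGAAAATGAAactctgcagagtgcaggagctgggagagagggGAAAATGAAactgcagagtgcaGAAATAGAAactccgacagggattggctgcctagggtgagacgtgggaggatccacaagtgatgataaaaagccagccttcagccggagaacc
IFI44L: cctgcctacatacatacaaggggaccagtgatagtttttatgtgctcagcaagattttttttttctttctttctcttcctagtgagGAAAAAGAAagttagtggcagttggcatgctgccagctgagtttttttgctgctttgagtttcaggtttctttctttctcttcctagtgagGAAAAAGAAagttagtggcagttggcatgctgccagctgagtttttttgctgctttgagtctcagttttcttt
IFI6 holds 3 matches and IFI44L holds 2.

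Genes of antigen presentation by MHC class I were also mostly lower. Of 20 tested members, 12 fell and 2 rose, with a median of -0.24. HLA-C fell by 0.45, HLA-B by 0.48 and the shared light chain B2M by 0.24 on the log2 scale, though reads of the near-identical HLA genes can be split between them. B2M had 878.2, 850.6 and 847.5 CPM in S100A9-inh libraries, against 1070, 973.3 and 990.9 CPM in Tr-BrM controls. NLRC5, the class I transactivator, fell by 0.57 on the log2 scale, and TAP1, a peptide transporter subunit, rose by 0.20. Immune checkpoint ligands were more often higher, with 10 of 21 tested higher (47.6%) and 3 lower (14.3%, near the share of all genes). Their median was 0.16, and 0.03 without Tr-BrM control replicate 3. CD274, which encodes PD-L1, had 20.9, 20.7 and 19.8 CPM in S100A9-inh libraries, against 13.4, 12.9 and 16.7 CPM in Tr-BrM controls, and rose by 0.52 ± 0.0813. PDCD1LG2, which encodes PD-L2, rose by 1.35 ± 0.165 and the poliovirus receptor PVR by 0.53.

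G2/M and mitosis genes fell, while few DNA replication genes passed the test. Of 42 tested G2/M genes, 31 fell (73.8%, against 13.8% of all genes), with a median of -0.23 and a highest value of 0.15. In edgeR's quasi-likelihood test 0 rose (15.4% of all genes did), and 0 also did at an unadjusted p under 0.05 and in DESeq2. AURKA, a centrosome kinase, had 332.0, 341.4 and 335.1 CPM in S100A9-inh libraries, against 486.2, 458.2 and 462.1 CPM in Tr-BrM controls, and fell by 0.48 on the log2 scale (SE 0.0307). CCNB1, the cyclin of mitotic entry, had 267.6, 271.1 and 272.9 CPM in S100A9-inh libraries, against 349.9, 349.1 and 348.6 CPM in Tr-BrM controls. PLK1, TOP2A and BIRC5 fell by 0.39, 0.34 and 0.31 on the log2 scale. Without S100A9-inh replicate 2 the count of members that rose was 2. Of 52 tested DNA replication and G1/S genes, 8 rose (15.4%, as among all genes) and 3 fell (5.77%, against 13.8%), with a median of 0.01. With library size alone 5 of these rose and 7 fell, and 1 fell without S100A9-inh replicate 1 or without Tr-BrM control replicate 3. CDC6, which loads the replicative helicase, rose by 0.24, and PCNA, the sliding clamp, did not pass (208 ± 6.85 CPM in S100A9-inh and 214 ± 5.2 CPM in Tr-BrM control, SD, n = 3 each, adjusted p = 0.364). Among p53 targets 6 of 26 rose (23.1%, against 15.4% of all genes) and 7 fell (26.9%, against 13.8%). Their median was -0.03 and their values ran from -0.79 to 1.08. GADD45A, a growth arrest gene, rose by 0.68 ± 0.048. CDKN1A, a cell cycle inhibitor, was at -0.08 ± 0.0304 (adjusted p = 0.0484). That call was lost with only the 6 compared libraries (adjusted p = 0.0873) and when most of the single libraries were left out.

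Metabolic genes gave smaller and mixed differences, to be read against 15.4% of all tested genes that rose and 13.8% that fell. Of 42 tested hypoxia and glycolysis genes 19 rose and 7 fell (median 0.13). BNIP3, a mitophagy receptor, rose by 0.68 ± 0.0428, HIF1A by 0.40 and LDHA, which makes lactate, by 0.30, while the glucose transporter SLC2A1 fell by 0.27 and DDIT4, an inhibitor of mTORC1, by 0.46 on the log2 scale. Of 30 tested fatty acid genes 7 rose and 7 fell. The lipogenic factor SREBF1 fell by 0.61, and its targets SCD and FASN fell by 0.40 and 0.32 on the log2 scale, whereas 11 of 27 cholesterol genes rose and 4 fell (median 0.10, range -0.35 to 0.32). For cholesterol genes the balance turned with library size alone, with 6 higher and 8 lower, and 6 were higher without Tr-BrM control replicate 2. Of 20 tested carboxylesterases, cytochromes and conjugating enzymes 9 fell and 3 rose (median -0.15, and -0.23 under a filter of 1 CPM in 3 libraries). CYP4F12, a fatty acid hydroxylase, had 4.04, 2.57 and 4.33 CPM in S100A9-inh libraries, against 10.6, 10.4 and 10.9 CPM in Tr-BrM controls, and CYP1A1 fell by 0.51 on the log2 scale. Of 78 cytosolic ribosomal protein genes 13 rose (16.7%) and 7 fell (8.97%), near or under the shares of all genes. However, 35 of them rose without Tr-BrM control replicate 1 and 5 without Tr-BrM control replicate 2, and 12 fell without S100A9-inh replicate 2. With library size alone 8 of them rose and 13 fell. FTH1, which encodes the heavy chain of ferritin, had 1087, 986.3 and 879.5 CPM in S100A9-inh libraries, against 287.3, 565.8 and 819.4 CPM in Tr-BrM controls. The groups were separate, with a wide spread among the controls, and FTH1 rose by 0.82 (adjusted p = 0.0668 in DESeq2), or by 0.51 without Tr-BrM control replicate 1.

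Signalling genes outside these pathways added single large differences. Endothelin-1, EDN1, had 32.5, 30.7 and 31.3 CPM in S100A9-inh libraries, against 14.1, 13.9 and 12.2 CPM in Tr-BrM controls, and rose by 1.23 ± 0.0743. The semaphorin SEMA3F, which repels vessels and tumour cells, fell by 0.99 on the log2 scale. In the Notch list 5 of 20 tested members rose and 4 fell, where 15.4% of all tested genes rose and 13.8% fell. Among these members, the ligand JAG1 rose by 0.78 and the receptor NOTCH1 fell by 0.66 on the log2 scale. WNT6 had 31.2, 33.0 and 28.03 CPM in S100A9-inh libraries, against 56.7, 65.2 and 71.9 CPM in Tr-BrM controls, and DACT1, an inhibitor of Wnt and TGF-β signalling, had 15.9, 15.8 and 16.8 CPM in S100A9-inh libraries, against 4.84, 4.24 and 5.25 CPM in Tr-BrM controls.

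The largest differences among genes at 5 CPM or more with separate replicates included several secreted proteins. TYRP1, a melanosome enzyme, had the largest rise, 3.12 ± 0.469 (4.78 without Tr-BrM control replicate 3), on a wide spread of 4.41, 13.1 and 16.6 CPM in S100A9-inh libraries and 0.26, 0.512 and 3.26 CPM in Tr-BrM controls. SPINK6, a kallikrein inhibitor of skin, had 65.9, 63.3 and 65.2 CPM in S100A9-inh libraries, against 23.2, 19.9 and 19.3 CPM in Tr-BrM controls, and rose by 1.65 ± 0.0556. NEXN, an actin-binding protein, rose by 1.61 ± 0.105. On the other side AGAP2, a GTPase regulator, had the largest fall, at 0.991, 1.56 and 0.959 CPM in S100A9-inh libraries, against 4.21, 5.999 and 6.95 CPM in Tr-BrM controls (-2.31 ± 0.238). HSPA6, an inducible HSP70, had 4.22, 4.89 and 3.53 CPM in S100A9-inh libraries, against 14.3, 15.5 and 16.96 CPM in Tr-BrM controls. FOLR1, the folate receptor, ZNF750, a factor of epidermal differentiation, the serine protease TMPRSS4 and the glycine-cleaving enzyme GLDC fell by 1.74, 1.67, 1.62 and 1.21 on the log2 scale.

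Markers of astrocytes and myeloid cells more often fell than rose, where 13.8% of all tested genes fell and 15.4% rose. The other marker lists had 10 or fewer tested members each. Of 12 tested astrocyte markers 7 fell and 2 rose (1 rose when S100A9-inh replicate 1 or 3, or Tr-BrM control replicate 2 or 3, was left out), with a median of -0.54 (-0.35 under a filter of 1 CPM in 3 libraries), and their summed level was 528.5 to 580.3 CPM in S100A9-inh libraries and 705.5 to 730.6 CPM in Tr-BrM controls. GFAP, the astrocyte filament, had 39.8, 31.3 and 24.2 CPM in S100A9-inh libraries, against 52.9, 62.5 and 74.2 CPM in Tr-BrM controls, with BrM controls at 8.68 CPM (adjusted p = 0.109 in DESeq2). GLUL, which carries most of the sum and is expressed in many cell types, fell by 0.47 on the log2 scale. Of 13 tested microglia and myeloid markers 6 fell and 1 rose, with a median of -0.53 and a summed level of 127.2 to 151.4 CPM in S100A9-inh libraries and 134.9 to 143.7 CPM in Tr-BrM controls, which overlapped. That median was -0.85 without S100A9-inh replicate 2 and -0.33 without Tr-BrM control replicate 1. LYZ, lysozyme, had 24 counts over the S100A9-inh libraries and 85 over the controls. CD68, P2RY12 and CX3CR1 were at or near 0, with 0, 1 and 2 counts over the S100A9-inh libraries and 2, 2 and 8 over the controls. As with IRF9, such counts do not show that these genes are silent, because the counting tool and gene models are not stated. Of 8 neuron markers 3 rose and 0 fell in edgeR's quasi-likelihood test (0 also at an unadjusted p under 0.05 and in DESeq2), with a median of 0.38 (0.25 under a filter of 1 CPM in 3 libraries), and the list summed to 84.77 to 87.7 CPM in S100A9-inh libraries and 71.28 to 74.63 CPM in Tr-BrM controls. Of 8 endothelial markers 2 rose and 0 fell in the same test (0 also at an unadjusted p under 0.05 and in DESeq2), with a median of 0.24 that was 0.09 without S100A9-inh replicate 2. Only 1 endothelial marker rose in DESeq2, or when S100A9-inh replicate 1 or 2, or Tr-BrM control replicate 1 or 3, was left out, and the sums overlapped, at 18.06 to 24.68 CPM in S100A9-inh libraries and 15.99 to 19.55 CPM in Tr-BrM controls. Of 10 fibroblast and pericyte markers 3 rose and 2 fell, with overlapping sums of 188.5 to 197.4 CPM in S100A9-inh libraries and 170.2 to 192.1 CPM in Tr-BrM controls, and 1 fell without S100A9-inh replicate 1 or without Tr-BrM control replicate 2. Among 6 oligodendrocyte markers 2 rose (1 in DESeq2) and 1 fell, with overlapping sums of 226.9 to 244.0 CPM in S100A9-inh libraries and 228.7 to 233.0 CPM in Tr-BrM controls. Of 4 lymphocyte markers 0 passed in edgeR's quasi-likelihood test (0 also at an unadjusted p under 0.05 and in DESeq2), 1 fell without S100A9-inh replicate 3, and the sums overlapped, at 6.094 to 8.014 CPM in S100A9-inh libraries and 7.288 to 8.788 CPM in Tr-BrM controls. Whether fewer cells of another type or less RNA per cell lies behind such levels cannot be told apart in bulk RNA, and the part of these cells in the falls and rises of the other lists was not tested. Of the 12 lung adenocarcinoma epithelium markers 10 were tested, and 4 fell and 2 rose, with a median of -0.02. Fewer rose with library size alone, or when S100A9-inh replicate 1 or 2 or Tr-BrM control replicate 2 was left out. KRT19 and ERBB3 were among those that fell, by 0.54 and 0.47 on the log2 scale. KRT8 and KRT18 did not pass, at 4470 ± 64.8 and 1209 ± 44.6 CPM in S100A9-inh and 4390 ± 146 and 1190 ± 54.3 CPM in Tr-BrM control (SD, n = 3 each). The lung lineage markers NAPSA and NKX2-1 were below the filter, with 19 and 27 counts over the S100A9-inh libraries and 23 and 20 over the controls.

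The same comparison in PC9 tests whether the response differed between the lines. In PC9 8487 of 16169 tested genes passed (52.5%), 4260 higher (26.3%) and 4227 lower (26.1%). The difference between the lines, (H1650 S100A9-inh minus Tr-BrM control) minus the same in PC9, passed for 7704 of 19076 genes (40.4%), 3759 with a higher value in H1650 (19.7%) and 3945 with a lower one (20.7%). S100A9 itself fell less in H1650 than in PC9, by -1.67 ± 0.0512 against -4.49 ± 0.0487, a difference of 2.81 ± 0.0762. Over the 14888 genes tested in each line, 1027 were higher in H1650 and lower in PC9, 905 were lower in H1650 and higher in PC9, 658 were higher in both and 494 lower in both. The genes higher in H1650 and lower in PC9 were 41.2% of those that rose in H1650 and 25.5% of those that fell in PC9.

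Interferon response genes differed between the lines in most members. Of 48 tested, 35 had a lower value in H1650 and 3 a higher one (against 20.7% and 19.7% of all genes). Of the 38 members tested in each line, 18 fell in H1650 and rose in PC9, against 905 of all 14888 genes so tested. BST2, tetherin, fell by 0.30 on the log2 scale in H1650 and rose by 3.79 ± 0.105 in PC9, where it had 40.6, 37.0 and 41.2 CPM under S100A9-inh, against 3.39, 2.77 and 2.40 CPM in PC9 Tr-BrM controls. OAS1 fell by 0.77 in H1650 and rose by 1.44 ± 0.223 in PC9. Of 20 MHC class I genes 15 had a lower value in H1650 and 3 a higher one (against 20.7% and 19.7% of all genes), and HLA-B differed by -0.94 ± 0.0693. For YAP and TEAD targets 16 of 27 had a higher value in H1650 and 4 a lower one (against 19.7% and 20.7% of all genes). Of the 26 tested in each line, 12 rose in H1650 and fell in PC9, against 1027 of all 14888 genes so tested. ANKRD1 rose by 1.33 in H1650, whereas in PC9 it had 6.44, 7.01 and 6.88 CPM under S100A9-inh, against 16.8, 20.5 and 19.0 CPM in Tr-BrM controls. CCN1 differed between the lines by 1.92 ± 0.0533.

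NF-κB genes were divided. Of 32 tested, 12 had a higher value in H1650 and 4 a lower one, against 19.7% and 20.7% of all genes. CXCL8 and RELB rose by 1.13 and 1.29 in H1650 and fell by 1.59 and 0.49 on the log2 scale in PC9. IL6 rose in both lines, by 1.12 ± 0.0675 in H1650 and by 2.73 ± 0.362 in PC9. EGF and TGFA rose by 1.82 and 0.90 in H1650 and fell by 1.78 and 0.64 on the log2 scale in PC9. Of 42 G2/M genes 19 had a lower value in H1650 and 8 a higher one (against 20.7% and 19.7% of all genes). Of the 41 tested in each line, 13 fell in both, against 494 of all 14888 genes so tested. AURKA fell by 0.48 on the log2 scale in H1650 and rose by 0.16 in PC9, and for TOP2A, which fell in both lines, the difference of -0.04 ± 0.0644 did not pass (adjusted p = 0.705). TNC and AXL rose in both lines and by less in H1650, with differences of -1.16 ± 0.0763 and -0.71 ± 0.0922. GFAP was not tested in PC9.

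**Figure D5:**
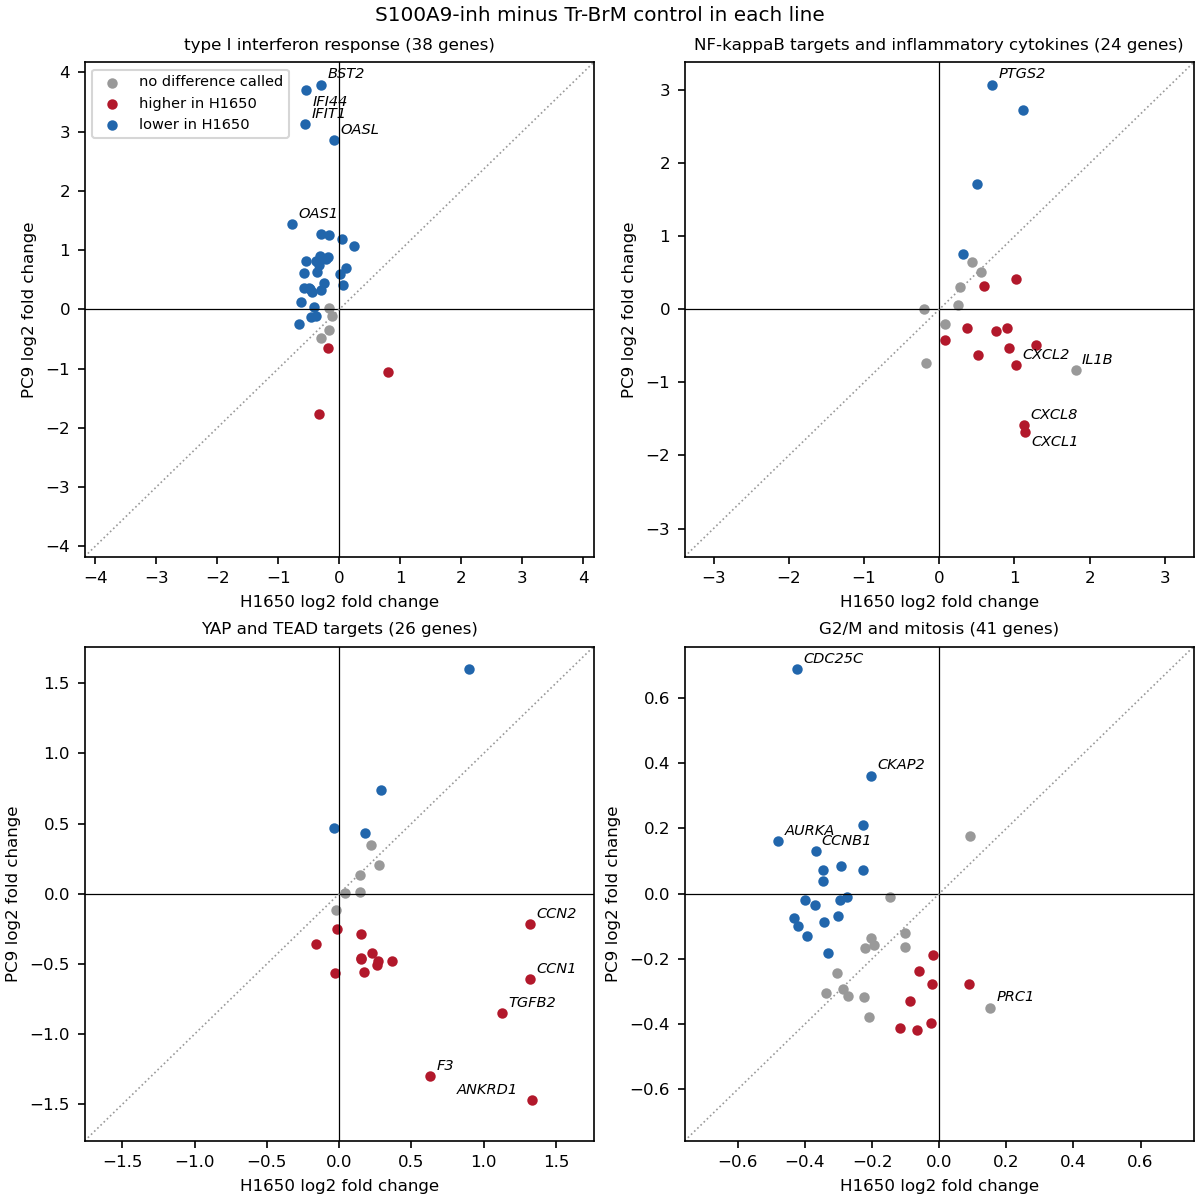
Log2 fold change, S100A9-inh minus Tr-BrM control, in H1650 (x axis) and PC9 (y axis) for members of 4 gene lists tested in each line; red and blue points had a called difference between the lines, higher or lower in H1650, grey points did not, and the dotted line marks equal values. Interferon response genes lie mostly to the left of 0 in H1650 and above 0 in PC9, and YAP and TEAD targets mostly to the right of 0 in H1650 and below 0 in PC9.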

How the data were processed

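The members and all gene lists were chosen with earlier results of these data known. Poly-A RNA-seq counts per gene are used as deposited: the authors made them from libraries of total RNA, and STAR, DESeq2 1.28.1, R 4.0.1 and the build GRCh38 are named per the submitters' processing notes. The counting tool, the gene models and the strand setting are not stated, so overlapping and near-identical genes can share reads. Counts of the H1650 table were fitted with edgeR 4.0.16 (R 4.3.3) over its 9 libraries: genes were kept by filterByExpr, scaled by TMM and tested with the quasi-likelihood test, and p-values were adjusted by Benjamini and Hochberg's method across the whole table, with 0.05 as the limit. The SE of a log2 fold change is its size divided by the square root of F. PC9 counts were fitted in the same way, and the difference between the lines was a contrast in 1 model of all 18 libraries, with genes matched by Ensembl ID. Symbols came from a table of gene names, and 60463 of the 60809 identifiers in either table matched it. Replicate pairs of the 2 H1650 groups compared differed by more than sampling noise (chi-square per degree of freedom 2.128 to 3.887). Each library counted once, although such values do not show that the libraries are separate cultures.

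Genes named are S100A9, S100A8, ALDH1A1, ALDH1A3 and EGFR, those with the largest or most significant changes at 5 CPM or more, and members of each list with the smallest p or with the opposite direction. Further list members, and genes given for a known role (AGER, TLR4, DUSP6, PCNA, SAA1, IL32, FTH1, KRT8, KRT18, MPO, MSR1, FCGR3A and the lineage and cell type markers), were chosen after their values were seen. Promoter windows are 250 bases before RefSeq starts (GRCh38.p14). The fits were tested on simulated data. A few list members are counted in their lists but not reported here by name. Alternatives were other scalings (library size alone, RLE, upper quartile), DESeq2 1.42.0, other filters, the compared libraries alone, a fold of 1.2 as the null, and each library left out in turn.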

Additional observations from a re-analysis of the deposited data

Results flagged for a closer look

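Each result here was picked out because the effect of S100A9-inh differed between H1650 and PC9 in the test of the difference itself (edgeR's quasi-likelihood test, H1650 minus PC9 on the log2 scale). S100A9, S100A8, ALDH1A1, ALDH1A3 and EGFR differed by 2.81, 3.62, 2.73, 1.21 and 0.59. For S100A9, S100A8 and ALDH1A1 both lines fell and H1650 fell less, while EGFR and ALDH1A3 did not pass in H1650 and fell in PC9. The keratins KRT17 and KRT6A differed by 4.52 and 2.99, the kallikrein KLK5 by 2.41 and the tight junction gene CLDN1 by 2.05. The secreted or matrix genes THBS1, CCN1 and COL4A2 differed by 1.96, 1.92 and 2.45, the coagulation receptor F3 by 1.93 and SEL1L3 by 2.26. On the other side, EPB41L2 differed by -7.16, BST2 by -4.09, EFHD1 by -2.72 and the lipid genes SCD and INSIG1 by -1.51 and -2.10. EPB41L2 rose in both lines, by 0.44 in H1650 and by 7.59 in PC9, where Tr-BrM controls averaged only 0.353 CPM. NDRG1, STAT6, IDH1, CTDSP2 and CAPG differed by -2.02, -1.86, -1.53, -1.61 and -1.75.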

How the results depend on the processing

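Against the reported 2762 higher and 2468 lower genes in H1650, a null of a 1.2-fold change left 647 higher and 529 lower, by its own construction. Library size alone turned the balance, to 2201 higher and 3193 lower. Of the genes past 1 on the log2 scale (199 higher, 167 lower), 110 were lower with DESeq2, and 125 were higher and 94 lower under a filter of 1 CPM in 3 libraries, which tests fewer low genes; for DESeq2 the cause was not tested. Leaving out each library gave 2286 to 2809 higher and 2050 to 2508 lower genes in H1650, 180 to 225 and 155 to 204 past 1 on the log2 scale, 3791 to 4247 higher and 3844 to 4233 lower genes in PC9, and 3577 to 3921 higher and 3481 to 3851 lower values in H1650 for the difference between the lines. S100A9 passed under every alternative run. KRT18 changed sign with library size alone (-0.014), without S100A9-inh replicate 2 (-0.010) and without Tr-BrM control replicate 2 (-0.018), KRT8 with library size alone (-0.009), and EGFR without Tr-BrM control replicate 3 (0.017), none of them past the threshold. Over the left-out libraries EGFR ranged from -0.039 to 0.017 and KRT18 from -0.018 to 0.046. Low counts limit RARB, TLR4 and ALDH1A1. No paired analysis was possible because the labels give the groups no shared replicate numbers.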

Other observations

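A few genes at trace levels, chosen after their values were seen, were present in some replicates only. REG1A had 1.065, 1.94 and 0 CPM in S100A9-inh libraries, with 75 counts over the group, against 0 counts over the Tr-BrM controls. Pooled over the group, these counts were at least 21.3-fold higher where the controls are set to 3 counts. Its relative REG1B also had 75 counts over the S100A9-inh libraries and 0 over the controls. MUC13, an intestinal mucin, had 0.881, 1.645 and 0 CPM in S100A9-inh libraries, with 63 counts, against 0 counts over the controls. Its pooled counts were at least 17.9-fold higher by the same limit. In REG1A and MUC13 S100A9-inh replicate 3 was at 0, so the pooled folds do not hold for each library. DESeq2 gave no adjusted p for REG1A or MUC13. CEACAM5, the carcinoembryonic antigen, had 1.982, 3.037 and 0.07668 CPM in S100A9-inh libraries, against 0.052, 0.03658 and 0 CPM in Tr-BrM controls.

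MPO, a granule enzyme of neutrophils, had 16.7, 30.75 and 19.17 CPM in S100A9-inh libraries, against 0.156, 0.1097 and 20.94 CPM in Tr-BrM controls. Tr-BrM control replicate 3 was thus within the range of the S100A9-inh libraries while the other controls were near 0. S100A7 also split within groups, with 0.07342, 0 and 0.8818 CPM in S100A9-inh libraries, against 3.38, 2.524 and 0.09717 CPM in Tr-BrM controls. The scavenger receptor MSR1, at 0.7709, 1.519 and 0.6901 CPM in S100A9-inh libraries and 3.64, 4.317 and 3.109 CPM in Tr-BrM controls, and the Fc receptor FCGR3A, at 1.175, 1.434 and 1.112 CPM in S100A9-inh libraries and 5.304, 3.512 and 4.664 CPM in Tr-BrM controls, were lower in every S100A9-inh library. The same separation was seen for 19.3% of all tested genes. MSR1 and FCGR3A were chosen after their values were seen and are outside the list of microglia and myeloid markers. The summed level of that list overlapped between the groups, at 127.2 to 151.4 CPM in S100A9-inh libraries and 134.9 to 143.7 CPM in Tr-BrM controls.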
